A study of Oryza sativa with 6 samples.

Results

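The HOX genes of rice (Oryza sativa) that encode homeodomain-leucine zipper (HD-Zip) transcription factors were compared between flag leaves of a T-DNA insertion mutant of OsSLAC7 (Os01g0385400) and flag leaves of wild type plants. The members were all genes whose symbol or RefSeq synonym is HOX, with or without the prefix Os, followed by a number. Of 26 genes so named, 25 had a probe set assigned to them alone, out of 17905 genes measured. HOX3 had none and was not analysed here. By the established division of the rice family, 12 of the 25 belong to class I, 8 to class II and 5 to class III.

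The mutant group held 3 arrays and the wild type group 3 arrays. Both groups were of the japonica cultivar Zhonghua11, carried no treatment, and were grown in a greenhouse and then moved to the field. The mutant is described as an insertion line of OsSLAC7, with no zygosity, number of insertions or second allele stated, and ages are not given. Flag leaf is the last leaf below the panicle, and the mean log2 value of 16 leaf blade markers lay between 11.15 and 11.26 on mutant and between 11.08 and 11.13 on wild type arrays. Among them OsrbcS, a small subunit gene of the carbon-fixing enzyme Rubisco, stood at 14.20 ± 0.02 in mutant and 14.30 ± 0.02 in wild type leaves (SD, n = 3 each), while RBCS1, also named for that subunit, was dim at 2.54 ± 0.17 in mutant and 2.56 ± 0.18 in wild type leaves. No probe set was annotated to OsSLAC7, so the disruption itself could not be checked here. The replicates are called biological, and nothing states that they are different plants. The p-values therefore cover only the spread among these arrays, which may be technical.

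HD-Zip proteins occur in plants only. The homeodomain binds DNA and the adjoining leucine zipper lets the proteins bind in pairs, which class I and class II proteins do on short palindromic sites of similar sequence. Class I genes are known for responses to drought and abscisic acid and for organ growth, and class II genes for repression of transcription, auxin and shade responses. Class III genes set the upper side of leaves and pattern the vascular tissue and meristem, and their transcripts are cut through the microRNA miR166. Class IV genes, which in rice are named ROC, act in the epidermis.

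Most HOX genes stood higher in mutant leaves. By limma with Benjamini-Hochberg adjustment over all genes (threshold 0.05), 11 of 25 rose, whereas 21% of all genes rose. None of the 25 fell past the threshold, whereas 6.32% of all genes fell. Only HOX8 was lower with an unadjusted p under 0.05, as were 1839 of all 17905 genes. The median log2 difference, mutant minus wild type, was 0.33 over the 25 genes and 0.10 over all genes, and 22 of the 25 differences were above 0, as were 63.8% of those of all genes. With each array centred on the median of its genes (called gene-median centring here), 15 of 25 were above 0, against 34% of all genes. In that setting HOX8 and HOX32 passed as lower, as did 3935 of all 17905 genes, and the median of all genes was -0.12. The 3 mutant values lay above the 3 wild type values in 14 HOX genes and below them in 1, against 32.2% and 13.4% of all genes. RNA amounts in whole leaves do not separate a change per cell from a change in the share of the cells that express a gene.

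**Figure D1:**
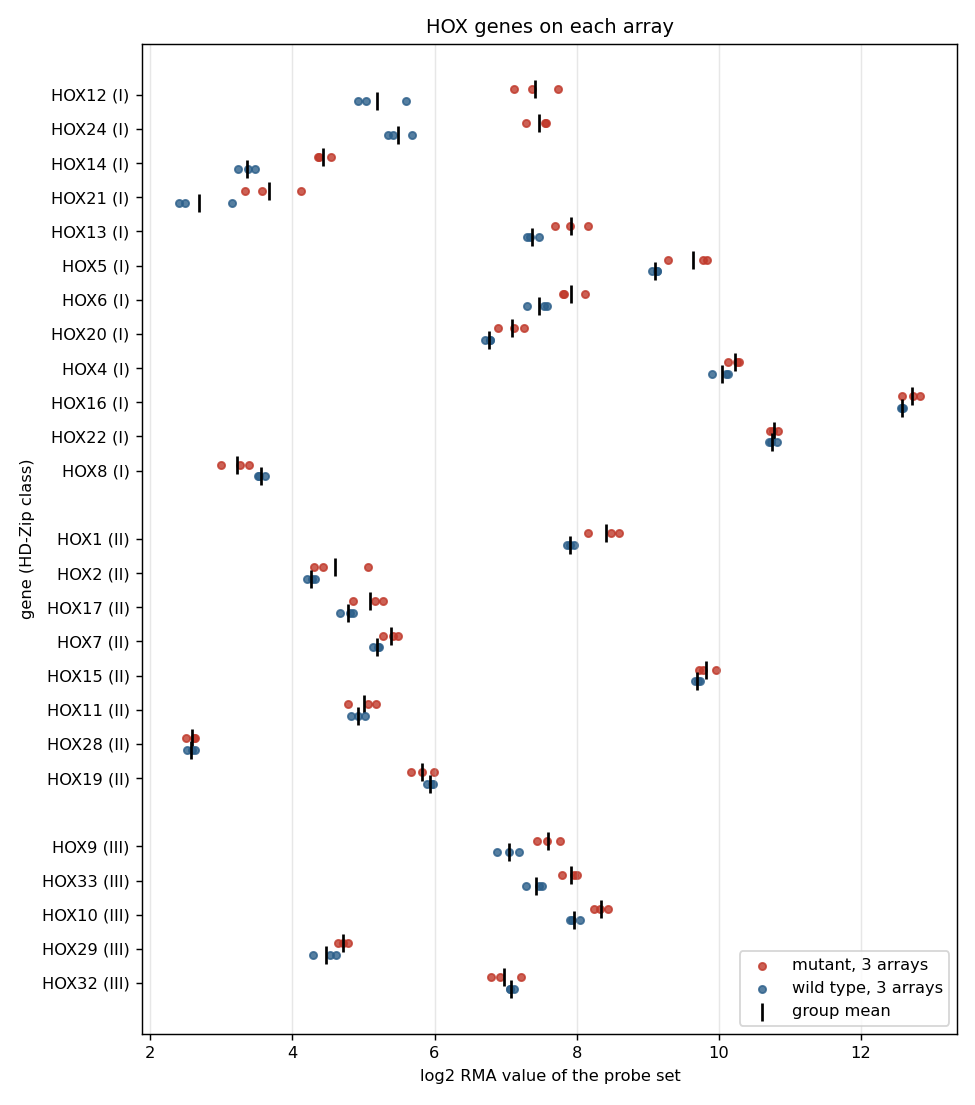
Log2 RMA value of each HOX gene's probe set on each of 6 arrays (horizontal axis), with genes down the page by HD-Zip class and, within a class, by their difference. Red points are the 3 mutant arrays, blue points the 3 wild type arrays and black ticks the group means. HOX12, HOX24 and HOX14 show the widest gaps between groups, and values of different genes come from different probes and are not comparable in level.

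The class I gene HOX12, which in rice binds the promoter of EUI1 and takes part in the emergence of the panicle from the leaf sheath, changed most. Its log2 values were 7.74, 7.13 and 7.37 in mutant leaves, against 4.92, 5.60 and 5.04 in wild type leaves. Every mutant array thus lay well above every wild type array, with wild type replicate 2 nearest to the mutant arrays. The difference was 2.23 (SE 0.21, limma adjusted p = 0.000444), a 4.68-fold change, and it ranked 45 of 17905 genes from the largest rise down.

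HOX24, which responds to drought and abscisic acid, had log2 values of 7.57, 7.55 and 7.28 in mutant leaves, against 5.35, 5.69 and 5.42 in wild type leaves. The groups were far apart and each was tight. The difference was 1.98 (SE 0.12, adjusted p = 7.09e-05), or 3.95-fold, at rank 67 of all genes.

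HOX22, a class I gene close to HOX24, is also known as drought-responsive. It had log2 values of 10.83, 10.76 and 10.73 in mutant leaves, against 10.70, 10.82 and 10.73 in wild type leaves, and the groups overlapped fully. Its difference was 0.02, with a 95% interval from -0.15 to 0.19 (adjusted p = 0.855). The difference between the responses of HOX24 and HOX22 was not tested.

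HOX14 is a relative of HOX12 and of the barley spike gene Vrs1 and is known from developing panicles. It had log2 values of 4.54, 4.38 and 4.35 in mutant leaves, against 3.48, 3.23 and 3.38 in wild type leaves. The groups did not overlap, although the probe set was dim, with a mean of 3.89 below the median of 4.66 over all probe sets. The measured difference was 1.06 (SE 0.09, adjusted p = 0.000344). HOX12, HOX24 and HOX14 were the HOX genes that were called with a rise of 1 or more, a level reached by 3.02% of all genes.

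HOX21 rose on a dim probe set. Its log2 values were 4.11, 3.57 and 3.33 in mutant leaves, against 2.48, 3.15 and 2.41 in wild type leaves. The lowest mutant and the highest wild type array were close, and the probe set is of a kind that can bind related transcripts. The measured difference was 0.99 (SE 0.25, adjusted p = 0.0246), and it no longer passed without mutant replicate 1 (adjusted p = 0.0526) or 2 (0.0508), or without wild type replicate 1 (0.0761) or 3 (0.0767).

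A further 3 class I genes rose by smaller amounts. HOX13 had log2 values of 7.91, 8.16 and 7.70 in mutant leaves, against 7.30, 7.34 and 7.48 in wild type leaves, a rise of 0.55 (SE 0.12, adjusted p = 0.0163). HOX5 had values of 9.83, 9.29 and 9.77 in mutant leaves, against 9.14, 9.13 and 9.06 in wild type leaves, a rise of 0.52 (SE 0.14, adjusted p = 0.0321). In both the groups did not overlap, and in HOX5 mutant replicate 2 lay close to wild type. HOX6, another drought-responsive gene, averaged 7.92 ± 0.18 in mutant and 7.47 ± 0.15 in wild type leaves (SD, n = 3 each), a rise of 0.45 (adjusted p = 0.0274). The calls of HOX13, HOX5 and HOX6 each ended without wild type replicate 1, and those of HOX5 and HOX6 also without mutant replicate 1 and without wild type replicate 3. HOX13 lost its call without wild type replicate 2 (adjusted p = 0.0535), and HOX5 did so without that array (0.0783) or mutant replicate 3 (0.0960).

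The other 5 class I genes did not pass. HOX20 was 0.33 higher (adjusted p = 0.0515) and had both of its probe sets separated between groups. HOX4, whose overexpression shortens rice plants and dampens gibberellin response, averaged 10.23 ± 0.08 in mutant and 10.05 ± 0.13 in wild type leaves (SD, n = 3 each), with a difference of 0.18 and an interval from -0.03 to 0.39. HOX16 differed by 0.14 (interval -0.07 to 0.34). HOX8 was the one HOX gene with all mutant arrays below all wild type arrays, at 3.0, 3.38 and 3.26 in mutant leaves against 3.51, 3.62 and 3.53 in wild type leaves. Its difference of -0.34 had an adjusted p of 0.0528 and passed under 5 of 15 other settings in which it was tested. Its probe set is dim and of the kind shared between transcripts. Over the class, 7 of 12 rose (58.3%, against 21% of all genes). The median difference was 0.49, against 0.10 over all genes.

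In class II, HOX1 was the gene that passed, 1 of 8 (12.5%, against 21% of all genes). HOX1, a repressor first studied for its part in the formation of vascular cells, had log2 values of 8.60, 8.16 and 8.48 in mutant leaves, against 7.87, 7.96 and 7.90 in wild type leaves. The groups did not overlap, and the wild type arrays were the tighter of the groups. The rise was 0.50 (SE 0.12, adjusted p = 0.0191). It did not pass without mutant replicate 3 (adjusted p = 0.0602), nor without wild type replicate 1 (0.0574) or 3 (0.0609).

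The other 7 class II genes, HOX2, HOX7, HOX11, HOX15, HOX17, HOX19 and HOX28, had differences between -0.12 (HOX19) and 0.33 (HOX2) and adjusted p of 0.0931 or more. HOX28, which acts with HOX1 on tiller angle, averaged 2.58 ± 0.07 in mutant and 2.58 ± 0.05 in wild type leaves (SD, n = 3 each), with an interval of the difference from -0.17 to 0.18, on a probe set so dim that a change in the transcript may not be visible. HOX2 rested on mutant replicate 1, at 5.06 against 4.31 and 4.42 in the other mutant arrays. HOX17 and HOX7 had unadjusted p of 0.0333 and 0.0373. The class median was 0.16, near that of all genes (0.10). With gene-median centring it was -0.05, and that of all genes was -0.12.

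In class III, 3 of 5 genes rose (60%, against 21% of all genes), by amounts of a like size. HOX9 had log2 values of 7.76, 7.45 and 7.59 in mutant leaves, against 7.19, 7.05 and 6.89 in wild type leaves, a rise of 0.56 (SE 0.11, adjusted p = 0.0108). HOX33, reported to act in leaf senescence, had values of 8.0, 7.96 and 7.80 in mutant leaves, against 7.51, 7.47 and 7.29 in wild type leaves, a rise of 0.50 (SE 0.09, adjusted p = 0.00789). In both genes the lowest mutant array lay above the highest wild type array. HOX10 averaged 8.34 ± 0.10 in mutant and 7.97 ± 0.07 in wild type leaves (SD, n = 3 each), a rise of 0.37 (adjusted p = 0.0169), and lost its call without wild type replicate 1 (adjusted p = 0.0532) or 3 (0.0698). HOX29 was 0.24 higher with separated groups, but did not pass (adjusted p = 0.116).

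HOX32, whose overexpression gives narrow rolled leaves, was the class III gene with a difference below 0. It had log2 values of 7.22, 6.92 and 6.79 in mutant leaves, against 7.12, 7.07 and 7.06 in wild type leaves, with mutant arrays on both sides of the wild type arrays. The difference was -0.11, with an interval from -0.37 to 0.16 (adjusted p = 0.512). The class median was 0.37. Whether the classes differ from each other in their response was not tested.

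**Figure D2:**
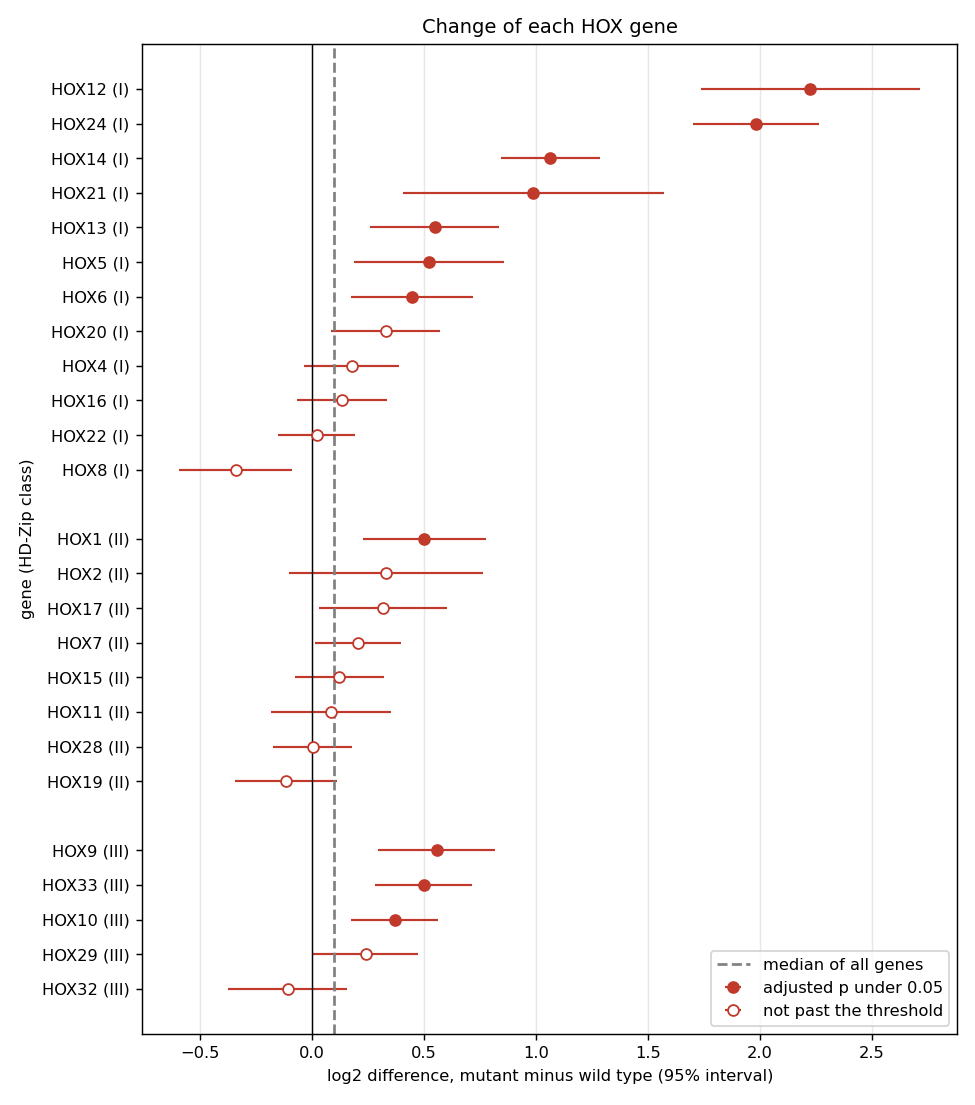
Log2 difference of each HOX gene, mutant minus wild type, with its 95% interval from limma (horizontal axis), by HD-Zip class down the page. Filled points passed an adjusted p of 0.05, open points did not, the solid line marks 0 and the dashed line the median of all genes at 0.10. The 2 largest differences, of HOX12 (2.23) and HOX24 (1.98), stand apart from the rest, which lie between -0.34 and 1.06.

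There were 6 HOX genes that had more than 1 probe set of their own. The probe sets of HOX10 differed in size of change, at 0.37 for the brighter one, used above, and 0.88 for the dimmer one, which had log2 values of 4.75, 4.64 and 4.51 in mutant leaves, against 3.74, 3.75 and 3.78 in wild type leaves. With p adjusted over all 57258 probe sets the dimmer one passed (0.00105), and the brighter one did not (0.0506), while 6.52% of all probe sets rose. HOX5 gave 0.52 and 0.60, HOX20 gave 0.33 and 0.36, and HOX7 gave 0.21 and 0.13. HOX16 gave 0.14, 0.18 and -0.07, and HOX19 gave -0.12, 0.05 and 0.09, each with intervals that include 0. For 5 of the 6 genes no probe set passed in that fit, which does not mean that they agreed in direction, as HOX16 and HOX19 show.

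The calls of the smaller changes depended on single arrays and on the scaling. In 20 of the 25 genes mutant replicate 1 was the highest of the mutant arrays, and in 0 of them mutant replicate 3 was, whereas these arrays were highest in 55.5% and 16% of all genes. Without mutant replicate 1, 8 HOX genes rose, while 14.7% of all genes did. Without wild type replicate 1 there were 5, and without wild type replicate 3 there were 6, against 16.7% and 11.9% of all genes. In class I these numbers were 4, 3 and 4. With gene-median centring HOX1, HOX5, HOX6, HOX10 and HOX13 did not pass, and with p adjusted over all probe sets HOX5, HOX6 and HOX10 did not. HOX12, HOX24, HOX14 and HOX33 passed under every other setting in which they were tested, 17 for all but HOX14, with 16. HOX9 passed in 16 of 17, the exception being the threshold of 0.01. HOX12 ranged from 2.01 to 2.43 and HOX24 from 1.77 to 2.08 over these settings.

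**Figure D3:**
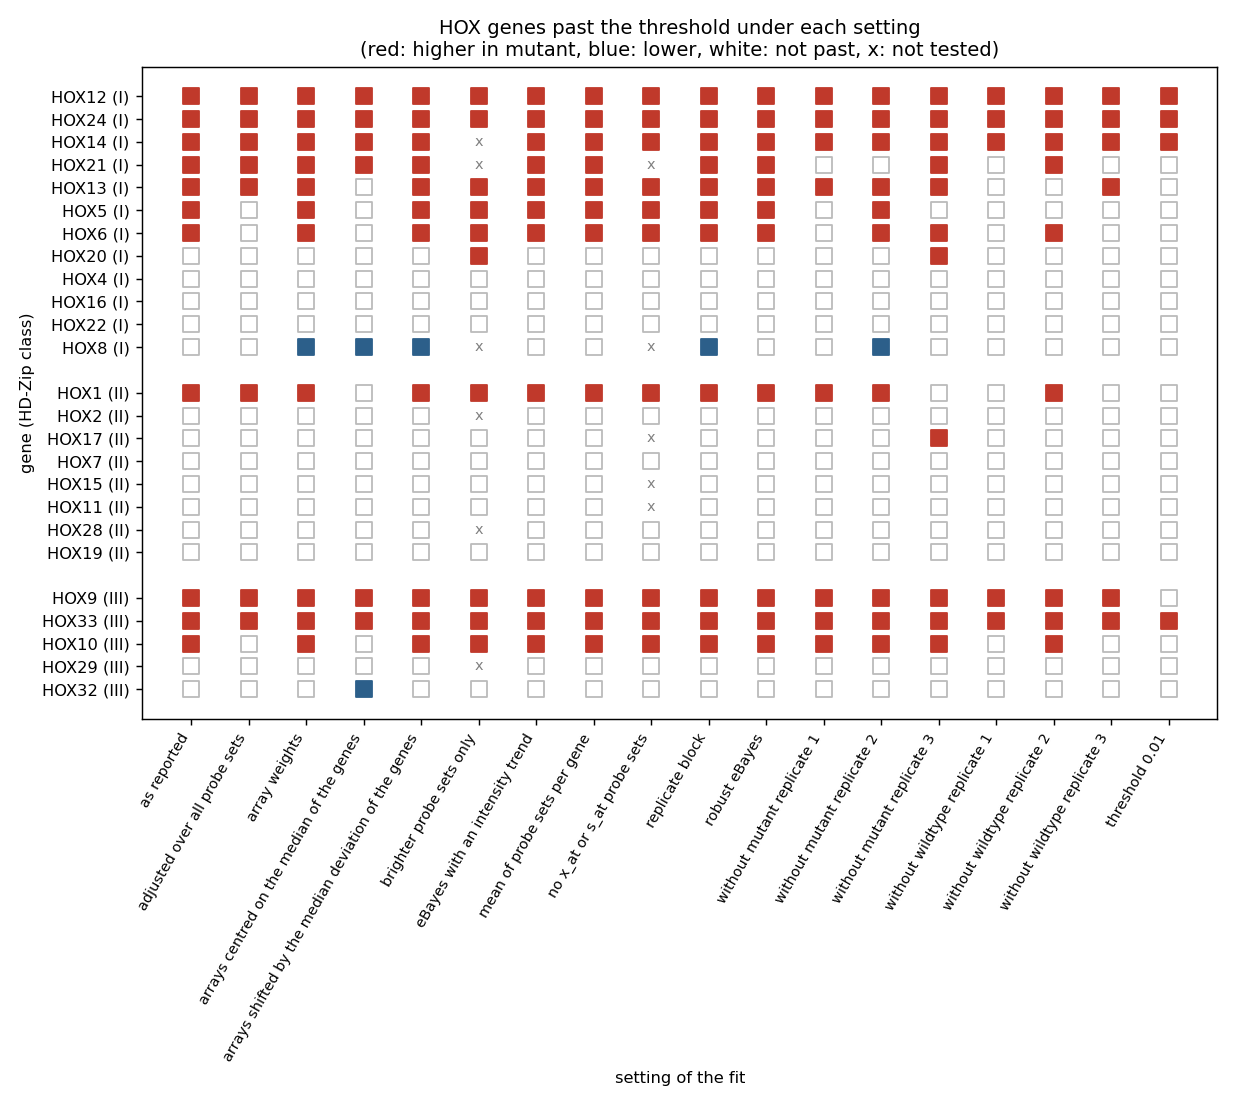
Calls of each HOX gene (down the page, by class) as reported and under 17 other settings of the fit (along the horizontal axis). Red squares are genes past the threshold and higher in mutant leaves, blue squares those past it and lower, white squares those not past it, and a cross marks a gene that the setting left untested. HOX12, HOX24 and HOX33 are red in every column, and HOX8 is blue in 5.

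Genes of related families and pathways were read from lists of names. Each list was described by counts and its median, with no test of the list as a whole, and single genes by the same fit. Of the 9 class IV ROC genes measured, 2 rose, a share of 22.2% that is near the 21% of all genes. They were ROC6 (0.35) and ROC5 (0.36), a gene of leaf epidermis that affects leaf rolling. Neither passed when mutant replicate 1 was left out, nor when wild type replicate 1 or 3 was. The list median was 0.11, or -0.11 with gene-median centring, which put the median of all genes at -0.12. Among 9 KNOX and BELL homeobox genes 3 rose (33.3%, against 21% of all genes), among them OSH1, which maintains the shoot meristem, at 6.60 ± 0.37 in mutant and 5.13 ± 0.32 in wild type leaves (SD, n = 3 each), a difference of 1.47 (adjusted p = 0.00294). HOS9 rose by 1.10 and OSH45 by 0.23. Without wild type replicate 1, 1 of the list passed while 16.7% of all genes rose, and 2 passed without any other single array. Of 7 WOX homeobox genes 2 rose and 1 fell, against 21% and 6.32% of all genes. The rises were of OsWOX13 (0.66) and of OsWOX11 (0.46), which acts in crown root formation, and OsWOX4 fell by 0.49, a call lost without 4 of the 6 arrays in turn. The WOX median was -0.0084.

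Of 13 genes of leaf polarity and of class III partners, 8 rose (61.5%, against 21% of all genes), with a median of 0.36. The YABBY genes OsYAB3 (1.37, adjusted p = 0.000191), OsYAB7 (1.31) and OsYAB1 (1.03), whose family acts in the growth of lateral organs, rose most. The other YABBY genes of the list, OsYAB2 (0.17), OsYAB5 (0.11) and OsYABBY7 (-0.07), did not pass. The Argonaute gene AGO1D, of the family that carries microRNAs to their targets, rose by 0.61. Other AGO1 genes were among the rises too, so the share of the list is not that of YABBY or polarity genes alone. LA1, the gravity response gene LAZY1, differed by 0.16 (adjusted p = 0.505). Without either of wild type replicates 2 and 3, 4 of the list passed, while 13.6% and 11.9% of all genes rose in those fits.

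Of 12 genes of gibberellin metabolism and signalling, 4 rose (33.3%, against 21% of all genes). They were the synthesis genes GA20OX3 (0.65) and KAO (0.59), the growth repressor SLR1 (0.39) and the receptor gid1 (0.27). EUI, the gene of the gibberellin-inactivating enzyme to whose promoter HOX12 binds, averaged 6.07 ± 0.24 in mutant and 6.42 ± 0.02 in wild type leaves (SD, n = 3 each). Its groups did not overlap, and its difference of -0.35 did not pass (adjusted p = 0.0693). The list median was 0.14, or -0.076 with gene-median centring, which put the median of all genes at -0.12. Without either of wild type replicates 1 and 3, 2 genes passed upward, while 16.7% and 11.9% of all genes did.

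Markers of other tissues and of dividing cells were read on the same arrays, against 21% of all genes that rose and 6.32% that fell. Of 20 panicle and flower organ markers measured 10 rose (50%), and their mean log2 value lay between 5.95 and 6.15 on the mutant arrays and between 5.52 and 5.56 on the wild type arrays. MADS45 (1.71), MADS24 (1.57) and MADS5 (1.40), of the genes that specify floral organs, were among them. The lodicule and stamen genes MADS16 (0.63), MADS4 (0.28) and MADS2 LOC4325001 (1.02) and the anther gene C4 (1.30) also rose. The stamen and carpel gene MADS3 (0.20) and the carpel genes DL (0.02) and MADS13 (-0.01) did not pass. Nor did a second gene with the symbol MADS2, LOC4343851 (0.20), or C6 (0.16), TDR (0.08), OsRAFTIN1 (-0.04) and MADS58 (0.23). MADS14 (-0.10) and MADS15 (-0.16) had every mutant array below every wild type array, but did not pass either. Of 9 dividing-cell markers 4 rose (44.4%), led by the mitotic cyclins CYCB2-2 (1.37) and CYCB1-1 LOC4327547 (1.34). A second gene of that name, CycB1-1 LOC4326914 (-0.10), did not pass. Nor did CYCB2-1 (0.49), CYCA2-1 (0.41), CYCA3-2 (0.18) and CYCA1-4 (0.18). The mean value of the 9 markers lay between 5.09 and 5.59 on mutant arrays and between 4.75 and 4.82 on wild type arrays. Mutant replicate 1 was the highest mutant array in 9 of 9 genes. Of 12 vascular and secondary wall markers 1 rose (8.33%), the laccase LAC7 (1.97). Of 16 leaf blade markers 2 rose (12.5%) and 1 fell. The part of these tissues and cells in the changes of HOX12, HOX14, HOX24 and the other HOX genes was not tested.

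**Figure D4:**
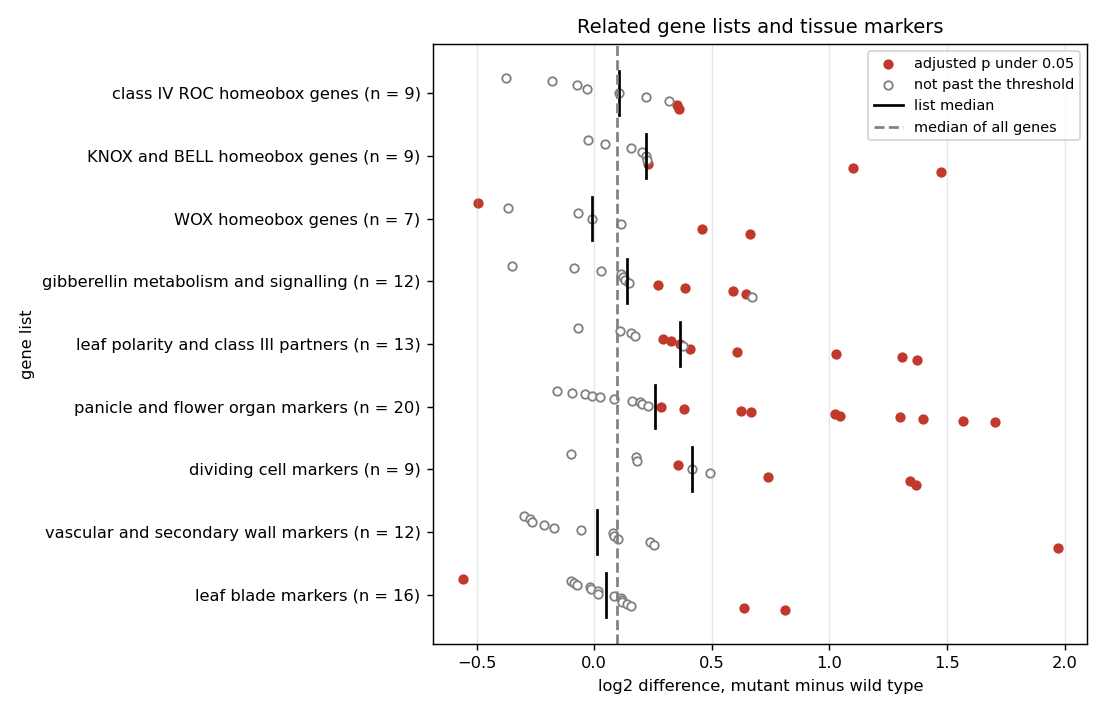
Log2 difference, mutant minus wild type (horizontal axis), of each measured gene in 5 lists of related genes and 4 lists of tissue markers (down the page). Filled points passed an adjusted p of 0.05, open points did not, black bars are list medians and the dashed line is the median of all genes at 0.10. The list of leaf polarity genes and class III partners (median 0.36), panicle markers (0.26) and dividing-cell markers (0.41) lie to the right. Leaf blade markers (0.05) and vascular markers (0.01) lie near 0.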

How the data were processed

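Total RNA of flag leaves was labelled with biotin and hybridised to rice arrays, 1 per sample. The authors deposited RMA values on the log2 scale (as their range of 1.65 to 14.5 shows). Per the submitters' processing notes they used affy, whose version is not given in the sources used here. The RMA method equalises intensity distributions between arrays, so differences in total RNA are removed. Scanner files and batches were not analysed here. Of 57381 probe sets, 123 AFFX controls were left out. Platform annotation gave 1 gene for 22436 probe sets, several for 95 and none for 34727. Names came from the RefSeq table, in which all 17905 genes matched. Array builds are not stated, so no coordinates are given, and sequences were not used here. Each gene was represented by its probe set with the highest mean. Those of HOX7, HOX8, HOX11, HOX15, HOX17, HOX19, HOX20 and HOX21 are of kinds that can bind related transcripts.

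The test was limma's moderated one (version 3.58.1, R 4.3.3), two-sided and without a block, Benjamini-Hochberg adjusted over all genes with a threshold of 0.05, and the procedure was tested on simulated data. Intervals cover 95%. The number of arrays limits the precision. Array medians lay between 4.58 and 4.72, and within-group Pearson correlations across probe sets between 0.992 and 0.996. Other settings were a replicate block, other scalings, variance models, array weights, probe set choices, adjustment over all probe sets, a stricter threshold and each array left out. Members and lists were chosen with earlier results of these data known. Names that the list patterns matched by accident (an abscisic acid receptor, OSH3 as a histone, other Argonautes) were dropped. All HOX genes were named, with the value on every array for those past the threshold by 0.5 or more and for the best of each class, and up to 4 called members of each related list. HOX8, HOX22, HOX32, EUI, LA1, OsYAB2, OsYAB5, OsYABBY7 and the markers were singled out beyond this rule after their values were seen. Figures used matplotlib 3.10.9.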

Additional observations from a re-analysis of the deposited data

How the results depend on the processing

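Gene-median centring moved the median of all genes to -0.12, so falls gain by construction. It left 6 HOX genes rising and 2 falling (median 0.12), with 4 and 1 in class I (median 0.27), 0 rising in class II (median -0.0504) and 1 falling in class III (median 0.15). In the related lists 9 rose and 6 fell with a median of -0.0037 (-0.1089 for ROC genes and -0.0763 for gibberellin genes), and over all genes 1804 rose and 3935 fell. Shifting arrays by the median deviation gave 1 falling HOX gene, of class I, a class III median of 0.27, 3 falls in the related lists and 2167 over all genes. With array weights 1 HOX gene fell, of class I, and 3 genes of the related lists, against 1360 of all genes.

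The labels do not say whether the replicate numbers pair the arrays. Deviations of same-numbered arrays from their group means correlated by 0.12, 0.12 and -0.02. These values cannot settle the question, since the deviations within a group of 3 arrays depend on each other. With the replicate block 11 HOX genes rose and 1, of class I, fell, and 2 genes of the related lists fell. Over all genes 3743 rose and 1011 fell with that block. At a threshold of 0.01, 4 HOX genes rose, 3 of class I, 0 of class II and 1 of class III, with 7 up and 0 down in the related lists and 1698 and 423 over all genes. Adjusted over all probe sets, 12 genes of the related lists rose and 0 fell, and 2477 and 620 of all genes. With probe sets of a gene averaged, the class III median was 0.50.

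With each array left out in turn, 5 to 11 HOX genes rose and 0 to 1 fell, in class I 3 to 7 and 0 to 1, and in class II 0 to 1 rose. The related lists had 10 to 17 rises and 0 to 1 falls, and all genes 2128 to 3639 and 572 to 1024. The causes were not tested. Signal limits HOX2, HOX8, HOX14, HOX21, HOX28 and HOX29, the 6 members below the median of all probe sets.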
